A study of Homo sapiens with 7 samples.

Results

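The distal part of the long arm of chromosome 10, from 74 Mb to the end of the chromosome, held 17126 of the 354783 chromatin loops listed for 3 human cancer cell lines. It was chosen by its loop density in Ishikawa cells, an endometrial adenocarcinoma line, and its members are the pairs of different anchors on chromosome 10 whose midpoints both lay at or beyond 74 Mb (hg19). Of these, 13148 were Ishikawa loops (of 163530), 862 were loops of T-47D, a breast carcinoma line (of 42027), and 3116 were loops of LNCaP, a prostate carcinoma line (of 149226). Loops came from H3K27ac HiChIP, which captures contacts of chromatin acetylated at lysine 27 of histone H3. The Ishikawa list pooled 4 samples: 2 given the vehicle DMSO and 2 given 10 nM E2 (estradiol) for 1 h. The T-47D list came from 1 sample and the LNCaP list from 2 samples, whose treatment the labels do not give. Ishikawa chromatin was cut with DpnII and the other chromatin with MboI, so wherever Ishikawa is set beside the others, the line, enzyme, sonication, read length and depth cannot be told apart.

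H3K27ac marks active promoters and enhancers, and enhancers act on genes by coming close to their promoters in the folded chromosome. In HiChIP the chromatin is cut and religated in place, so that read pairs joining distant anchors count such contacts. A distal anchor, one that holds no promoter, is taken as a putative enhancer of each gene whose promoter anchor it is joined to. The number of read pairs depends on how often the contact forms, how strongly its anchors are acetylated and how many copies of the DNA a cell carries, and these cannot be told apart in the lists. Each list is 1 measurement per cell line, so no value has a replicate error, no test between lines was possible, and intervals are 95% intervals that cover counting error only.

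The labels held at genes outside the segment. Read pairs at the promoter of PAX8, a transcription factor of the female genital tract, numbered 162 in Ishikawa and 0 in both other lists. Those at GATA3, a luminal breast factor, numbered 1063 in T-47D, 0 in LNCaP and 7 in Ishikawa. Those at KLK3, which encodes prostate-specific antigen, numbered 2936 in LNCaP, 6 in Ishikawa and 0 in T-47D.

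Sequences at both ends of the contacts described below came from the reference (GRCh37). The first set shows the 250 bases before the start site of 3 genes whose promoters had many distal partners in Ishikawa and few or none elsewhere: EMX2, a homeobox factor of the urogenital tract, TCF7L2, the transcription factor that carries Wnt signals to DNA, and FGFR2, a fibroblast growth factor receptor. They are written 5′ to 3′ on the strand of the gene, and capitals mark the GC box, GGGCGG on either strand, which members of the SP family bind. The EMX2 stretch is chr10:119301706-119301955 (plus strand), that of TCF7L2 is chr10:114709756-114710005 (plus strand) and that of FGFR2 is chr10:123357973-123358222 (minus strand).
EMX2: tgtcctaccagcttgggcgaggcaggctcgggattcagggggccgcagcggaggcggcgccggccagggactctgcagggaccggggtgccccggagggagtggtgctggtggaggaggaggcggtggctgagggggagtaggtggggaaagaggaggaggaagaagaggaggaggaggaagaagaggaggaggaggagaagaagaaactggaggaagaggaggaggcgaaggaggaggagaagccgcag
TCF7L2: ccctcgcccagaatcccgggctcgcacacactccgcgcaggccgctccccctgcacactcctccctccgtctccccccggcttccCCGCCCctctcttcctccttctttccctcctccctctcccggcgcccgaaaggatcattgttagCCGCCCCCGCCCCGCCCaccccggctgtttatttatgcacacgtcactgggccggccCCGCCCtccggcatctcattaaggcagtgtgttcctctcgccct
FGFR2: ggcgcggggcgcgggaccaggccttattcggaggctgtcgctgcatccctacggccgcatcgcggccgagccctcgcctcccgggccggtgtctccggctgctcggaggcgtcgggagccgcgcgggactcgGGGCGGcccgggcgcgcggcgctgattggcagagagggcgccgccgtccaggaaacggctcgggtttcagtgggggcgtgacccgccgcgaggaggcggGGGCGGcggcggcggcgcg
The TCF7L2 stretch held 5 GC boxes, with overlapping matches counted, the FGFR2 stretch 2 and the EMX2 stretch 0. Their GC content was 68.0%, 79.2% and 66.4%, with 21, 44 and 12 CpG dinucleotides. At least 1 GC box lay in the same window of 218 of 429 segment genes (50.8%) and of 164 of 313 genes on the rest of chromosome 10 (52.4%), so these promoters carried the motif about as often in both regions.

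The second set shows full estrogen response elements (EREs), the palindrome GGTCANNNTGACC that estrogen receptor α binds, inside anchors linked to gene promoters. Each is given with 24 bases on both sides, on the plus strand, with the palindrome in capitals. They lay in an intron of ZMIZ1 (chr10:80918404-80918464), in an intron of PLCE1 (chr10:95796188-95796248), and between genes near the end of the chromosome upstream of CFAP46 (chr10:134813640-134813700) and downstream of ADAM8 (chr10:135065387-135065447).
ZMIZ1 intron: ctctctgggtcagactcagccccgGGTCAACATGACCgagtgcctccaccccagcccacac
PLCE1 intron: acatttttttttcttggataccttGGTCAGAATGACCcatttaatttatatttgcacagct
CFAP46 upstream: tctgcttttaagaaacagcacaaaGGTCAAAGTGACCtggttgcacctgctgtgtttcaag
ADAM8 downstream: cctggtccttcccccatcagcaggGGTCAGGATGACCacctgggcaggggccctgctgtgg
Of the 3551 Ishikawa anchors in the segment, 20 held such a palindrome anywhere along their length, and 9 palindromes were in anchors joined to the promoters of 20 genes. No background of equal length was taken for whole anchors, so nothing is read from these counts. Windows of 1000 bases at anchor centres are shorter than the anchors (median 5.30 kb) and are set beside windows of the same size. The palindrome was in 1 of 3551 Ishikawa windows in the segment (0.0282%) and 4 of 2170 on the rest of the chromosome (0.184%). Of the 61219 windows of that size that tile the segment, 50 held it (0.0817%). The AP-1 motif, TGANTCA on either strand, was in 27.3% of the Ishikawa segment windows, 29.2% of the windows on the rest and 27.4% of all segment windows. These letters were thus about as frequent at the centre of an Ishikawa anchor as anywhere in the segment. GC boxes were in 14.5% of Ishikawa, 50.5% of T-47D and 27.3% of LNCaP segment windows, in the order in which anchors of the lists overlapped promoters (14.2%, 44.8% and 28.8%).

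The Ishikawa list held 213.7 loops per Mb in the segment and 40.2 per Mb on the rest of chromosome 10, a ratio of 5.31 (5.11 to 5.53). These values chose the segment and are given as a description. T-47D had 14.0 loops per Mb in the segment and 11.7 on the rest, a ratio of 1.20 (1.09 to 1.32), which was 1.80 (1.56 to 2.08) with the q arm from 43 Mb to 74 Mb as the reference. LNCaP had 50.6 and 41.0, a ratio of 1.23 (1.17 to 1.30). Protein-coding genes were also denser in the segment, at 6.97 per Mb against 4.23 per Mb. Per gene, Ishikawa had 30.6 loops in the segment and 9.50 on the rest, whereas T-47D had 2.01 and 2.77 and LNCaP 7.26 and 9.70. The segment thus took 9.59% of all Ishikawa read pairs but 2.20% of those of T-47D and 1.82% of those of LNCaP. The ratio in read pairs per Mb was 6.95 in Ishikawa, 1.27 in LNCaP and 1.27 in T-47D. Outside the segment, chromosome 10 looked like the other chromosomes in Ishikawa, which averaged 42.6 loops per Mb without the end of the long arm of chromosome 3 (253 per Mb) and chromosome 12 up to 73 Mb (241 per Mb).

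Around the start of the segment at 74 Mb, the bin counts rose in all 3 lists. From 70 Mb on, successive bins of 1 Mb held 115, 77, 55, 46, 103, 252, 314 and 132 Ishikawa loops. The same 8 bins held 22, 16, 8, 2, 21, 46, 14 and 8 loops in T-47D and 84, 79, 40, 87, 179, 300, 74 and 7 in LNCaP. The first segment bin thus held fewer Ishikawa loops than the bin from 70 Mb. Among these bins T-47D and LNCaP were highest in the bin from 75 Mb, which holds 21 genes, and Ishikawa in the bin from 76 Mb, and in the bin from 77 Mb the counts of T-47D and LNCaP were low. Only 11 Ishikawa loops joined anchors on either side of 74 Mb, against 9 in T-47D and 69 in LNCaP, and these are counted with the rest. The first Ishikawa loop inside the segment started at 74007158 and had 3 read pairs, and the last outside it started at 73974375 and had 5.

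**Figure D1:**
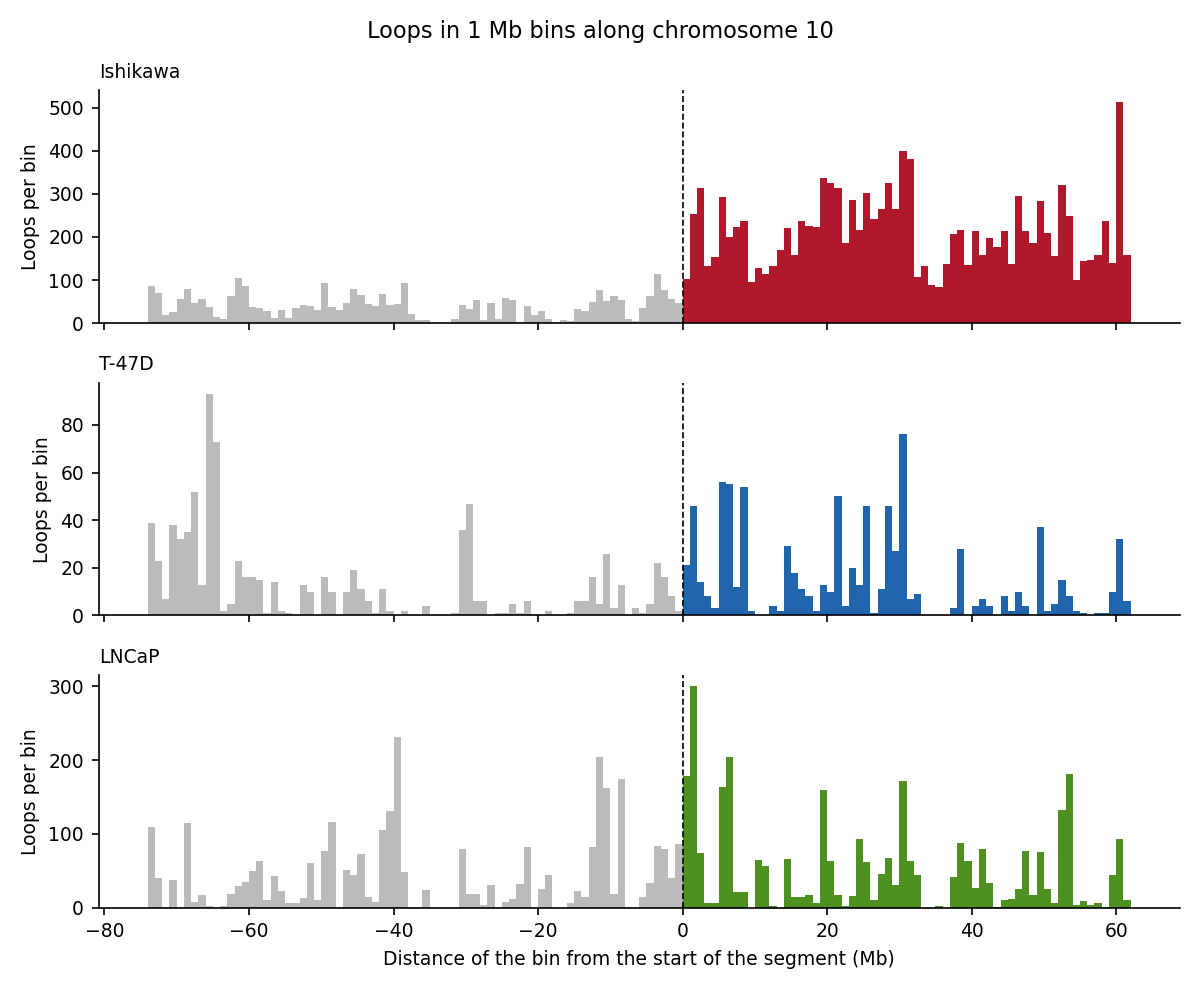
Loops in bins of 1 Mb (y axis, number of loops, scale set per panel) against distance from the start of the segment (x axis, Mb, dashed line at 0), for the 3 lists; coloured bars are the segment and gray bars the rest of chromosome 10. Ishikawa counts run from 84 to 514 in the full segment bins and reach 115 on the rest, whereas T-47D and LNCaP counts alternate between peaks and bins near 0 on both sides of the line.

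Every full bin of the segment held Ishikawa loops, from 84 to 514 with a median of 214, whereas 71 bins on the rest ranged from 3 to 115 with a median of 40. These 71 leave out the bins that are mostly unknown bases (N). Over all 74 bins of the rest the range was 0 to 115 and the median 38.5. The ranges overlapped, since 7 of the 61 segment bins held no more than 115. T-47D had no loop in 10 of the 61 full segment bins and LNCaP in 5. The densest Ishikawa bins began at 134 Mb (514 loops), 104 Mb (399), 105 Mb (381), 93 Mb (336) and 94 Mb (324, equal to 102 Mb), and the sparsest at 109 Mb (84), 108 Mb (89) and 83 Mb (96). In 3 bins with no loop in either other list, those from 107 Mb, 108 Mb and 110 Mb, Ishikawa held 133, 89 and 137 loops. Those bins hold 1 protein-coding gene in all, so Ishikawa contacts also filled gene-poor stretches. The number of loops in a bin still followed the number of genes: Spearman's rho over the 61 segment bins, which share a library, was 0.63 in Ishikawa, 0.53 in LNCaP and 0.65 in T-47D. Within the segment, rho between the Ishikawa and T-47D bin counts was 0.66, and between Ishikawa and LNCaP 0.52. The 5 densest bins took 15.0% of the Ishikawa segment loops but 33.8% of those of T-47D and 33.1% of those of LNCaP, so the Ishikawa loops were spread more evenly. This was not particular to the segment, since over the 71 bins on the rest the shares were 16.6%, 35.3% and 30.0%.

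The dense segment had more anchors and also more partners per anchor. Ishikawa had 3551 anchors there (57.7 per Mb) and 2170 on the rest (29.3 per Mb), and these covered 37.4% and 17.1% of the DNA. An anchor had 7.41 partners on average in the segment and 2.74 on the rest. Anchors with 20 or more partners numbered 139 in the segment and 1 on the rest. In T-47D the mean was 3.56 in the segment and 3.67 on the rest, and in LNCaP 6.36 and 5.78. Loops of the segment were also better supported in Ishikawa, with 23.3% at 10 or more read pairs against 13.2% on the rest, and 40.3% against 47.9% at the minimum of 3. In T-47D the shares at 10 or more read pairs were 23.1% and 21.9%, and in LNCaP 26.5% and 25.7%. The Ishikawa list consists of 4 separately sorted parts that cannot be assigned to samples or treatments. In every one of them the segment was denser than the rest, by 5.66 to 7.45 times per Mb. These parts make up the list whose density chose the segment, so they are no independent check of it. Of the summed segment loops, 40.4% were in 2 or more parts against 31.2% of those on the rest.

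Ishikawa loops of the segment spanned longer distances than those on the rest of the chromosome. The median span was 57.5 kb (55.9 to 59.0) against 31.0 kb (29.2 to 32.9). The order was the opposite in T-47D, with 64.0 kb (55.7 to 70.4) against 120 kb (106 to 137). LNCaP also had the opposite order, with 98.6 kb (91.2 to 105) against 112 kb (104 to 119). The T-47D reference was longer than elsewhere. T-47D loops of the other chromosomes, without the dense segments of chromosomes 3 and 12, had a median of 84.1 kb (82.7 to 85.5). Bins from 8 Mb and 9 Mb held 93 and 73 of the 866 T-47D loops on the rest. The T-47D segment median was below both references, but the size of its difference depends on which is used. The ratio of Ishikawa loop densities grew with span, from 3.06 under 20 kb through 4.73, 6.40 and 9.38 to 12.2 at 500 kb and over. In the last class the counts were 376 loops in the segment and 37 on the rest. In T-47D the same ratios, taken against the long-spanned rest of chromosome 10, were 1.59, 1.92, 1.57, 0.879 and 0.524. In LNCaP the ratios stayed between 1.14 and 1.37. The longest LNCaP loops spanned 1765 kb in the segment and 1998 kb on the rest. In Ishikawa these spans were 28879 kb and 91400 kb, and in T-47D 12474 kb and 42022 kb. Spans and the class of 500 kb and over thus do not cover the same range in the 3 lists. The dense segments of chromosomes 3 and 12 resembled this one in Ishikawa, with median spans of 62.3 kb and 59.5 kb and means of 8.16 and 7.89 partners per anchor. The chromosome 3 segment was also dense in the other lists, at 41.3 loops per Mb in T-47D and 120 in LNCaP, where the segment of chromosome 10 had 14.0 and 50.6.

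**Figure D2:**
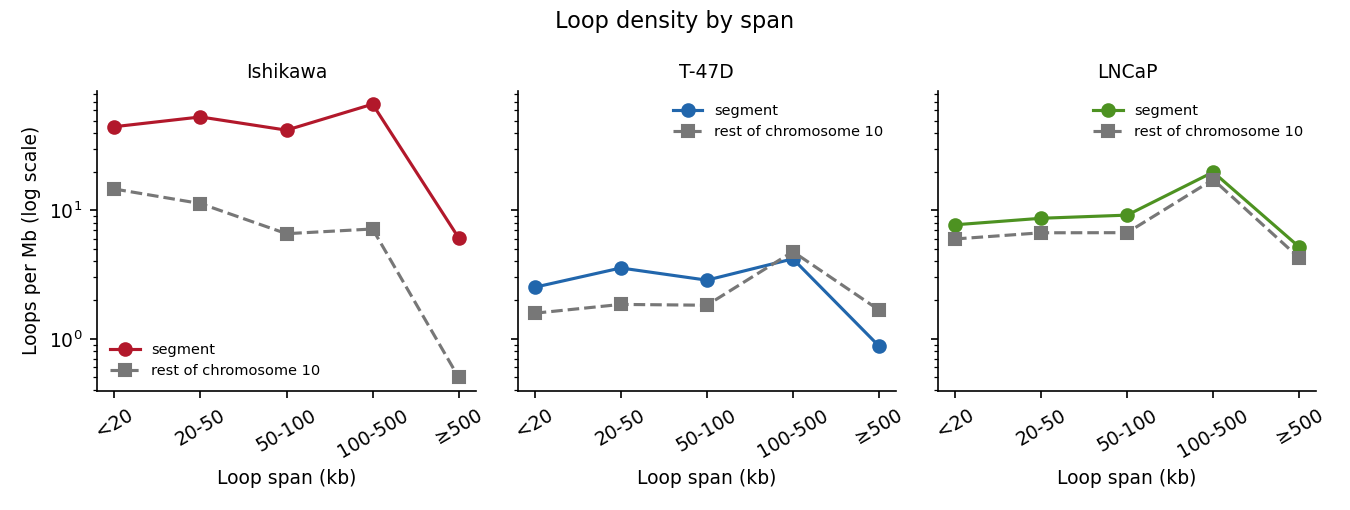
Loops per Mb (y axis, log scale) in 5 classes of loop span (x axis, kb) in each list; circles and solid lines are the segment, squares and dashed lines the rest of chromosome 10. In Ishikawa the lines move apart with span, from a ratio of 3.06 to one of 12.2, whereas in T-47D they cross above 100 kb and in LNCaP they run nearly parallel. The longest LNCaP span is 1998 kb, below the longest of the other lists.

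Most Ishikawa contacts in the segment joined sites without promoters. Loops between distal anchors made up 68.4%, promoter to distal loops 26.5% and promoter to promoter loops 5.11%. On the rest the shares were 77.2%, 19.8% and 2.99%. In T-47D the segment shares were 31.0%, 38.5% and 30.5%, and in LNCaP 39.8%, 41.9% and 18.3%. Among the 3551 Ishikawa segment anchors, 14.2% overlapped a promoter, 15.5% an exon, 26.8% only introns and 43.5% no protein-coding gene.

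Of the 429 protein-coding genes that start in the segment, 330 were linked to a distal anchor in Ishikawa (76.9%, 72.7 to 80.7), against 161 of 313 on the rest of chromosome 10 (51.4%, 45.9 to 56.9). T-47D linked 157 segment genes (36.6%) and 37.4% on the rest, and LNCaP 231 (53.8%) and 51.4%. The linked genes had a median of 8 distal anchors in Ishikawa in the segment and 2 on the rest, while T-47D had 2 and 2 and LNCaP 4 and 4. At least 10 distal anchors were linked to 136 of the 429 segment genes in Ishikawa, to 46 in LNCaP and to 1 in T-47D. Among the 313 genes on the rest the numbers were 7, 32 and 2 in the same order. Among all 20163 protein-coding genes they were 771, 1815 and 124, so the lists differ in this number far beyond the segment. Distal read pairs, as a share of the read pairs of the list, were at least 4-fold higher in Ishikawa than in both other lists for 141 segment genes (32.9%) and 12 genes on the rest (3.83%), where each list was counted as at least 3 read pairs. Over all 20163 protein-coding genes, 6.49% passed this rule. They were at least 4-fold lower for 8 segment genes (1.86%), where 7.99% of all genes passed. Since Ishikawa loop density chose the segment, nothing is read from these counts. Of 145 segment genes with no promoter anchor in T-47D or LNCaP, 77 had one in Ishikawa (53.1%), against 35 of 118 on the rest (29.7%). Over all chromosomes it was 2591 of 7455 such genes (34.8%). For the same reason, nothing is read from this count either.

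The gene with the most distal partners in Ishikawa was GRID1, which encodes a glutamate receptor subunit of the delta family. Its promoter anchors were joined to 47 distal anchors by 447 read pairs in Ishikawa and to 0 in both other lists. The strongest partner, with 42 read pairs, lay 40.5 kb upstream at chr10:88159770-88174381 outside any protein-coding gene, and the next, with 34, lay in an intron of GRID1 187 kb downstream of the start site. CFAP46, a protein of the ciliary central apparatus, had 34 distal anchors and 736 read pairs in Ishikawa and 0 in the others. The CFAP46 promoter anchor at chr10:134680212-134699502 had the most partners of any segment anchor in Ishikawa, 50 in all, 26 on its left and 24 on its right. The distal anchor with the ERE upstream of CFAP46 shown above had 25 partners in Ishikawa and was joined to CFAP46 promoter anchors by 27 read pairs, and neither other list had an anchor over it.

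NT5C2, a cytosolic nucleotidase, had 32 distal anchors and 767 read pairs in Ishikawa, 8 anchors with 265 read pairs in LNCaP and 0 in T-47D. PLCE1, a phospholipase C that signals to RAS proteins, had 27 anchors and 452 read pairs in Ishikawa and 0 elsewhere. The intronic PLCE1 anchor with an ERE was joined to the PLCE1 promoter by 31 read pairs in Ishikawa. T-47D listed an anchor over the same palindrome with 4 partners and 16 read pairs, none of them the PLCE1 promoter, and LNCaP listed none. LDB3, a Z-disc protein of striated muscle, had 28 distal anchors in Ishikawa, 0 in LNCaP and 3 in T-47D. ADK, which phosphorylates adenosine, had 28, 15 and 3, and wherever 3 numbers of distal anchors follow a gene without the names of the lists, they are those of Ishikawa, LNCaP and T-47D in this order.

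FGFR2 had 29 distal anchors and 298 read pairs in Ishikawa, 3 anchors and 29 read pairs in T-47D and 0 in LNCaP. Its strongest Ishikawa partner, with 38 read pairs, was chr10:122859320-122875345, 491 kb downstream of the start site and outside any protein-coding gene. The next, with 37 read pairs, was at the 3′ end of FGFR2, 122 kb from the start site. The T-47D partners of FGFR2 all lay within 25.1 kb of the start site, so the farther Ishikawa contacts were not listed there. TCF7L2 had 31 distal anchors and 230 read pairs in Ishikawa, 2 anchors with 8 read pairs in LNCaP and 0 in T-47D. Its strongest Ishikawa partner, with 31 read pairs, lay 52.0 kb upstream, and others reached 700 kb from the start site. KCNMA1, a calcium-activated potassium channel, had 27 distal anchors in Ishikawa, 21 in LNCaP and 0 in T-47D. Its read pairs numbered 268 in Ishikawa and 526 in LNCaP, and the strongest partners in both lists lay in KCNMA1 introns, 607 kb and 131 kb from the start site.

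CTBP2, a transcriptional corepressor, was the only gene among the leading ones of all 3 lists, with 28 distal anchors (303 read pairs) in Ishikawa, 39 (993) in LNCaP and 9 (46) in T-47D. An intronic anchor about 98 kb downstream of the start site (chr10:126747769-126755933) carried 24 read pairs in Ishikawa, and an overlapping anchor (chr10:126744512-126756563) carried 197 in LNCaP, where it was the strongest partner. A T-47D anchor inside both of them (chr10:126752063-126753801) carried 6 read pairs. DLG5, a scaffold protein of cell junctions, had 18, 15 and 8 distal anchors in Ishikawa, LNCaP and T-47D. Its strongest partners in Ishikawa (176 read pairs, chr10:79590941-79612408) and T-47D (43 read pairs, chr10:79602297-79608605) overlapped within the gene.

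**Figure D3:**
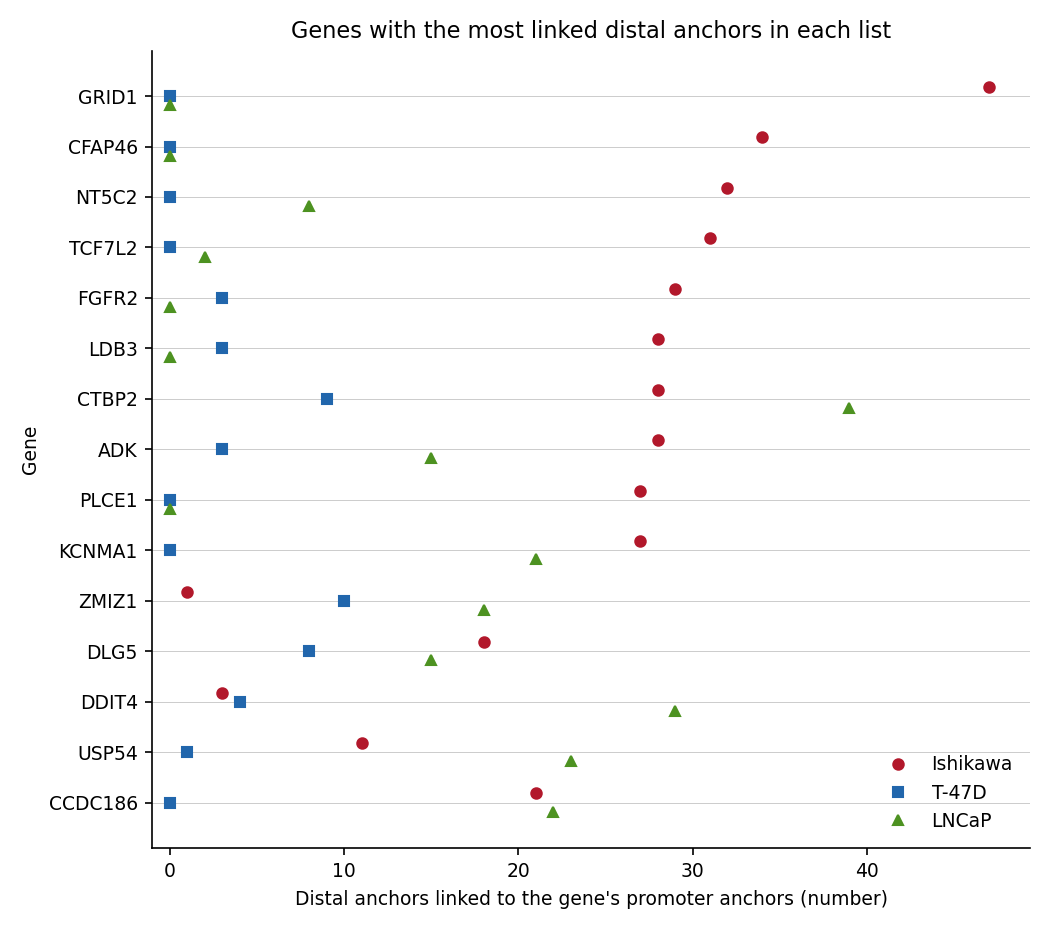
Distal anchors linked to promoter anchors (x axis, number) of the 10 segment genes with the most in Ishikawa, 3 of those with the most in T-47D and the 5 with the most in LNCaP (y axis); circles are Ishikawa, squares T-47D and triangles LNCaP. Points run from 27 to 47 for the leading Ishikawa genes, of which GRID1, CFAP46 and PLCE1 are at 0 in both other lists, while ZMIZ1 and DDIT4 are low in Ishikawa at 1 and 3.

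A few segment genes went the other way. ZMIZ1, a transcriptional coactivator of the PIAS-like family, had 1 distal anchor with 3 read pairs in Ishikawa, 18 anchors with 250 read pairs in LNCaP and 10 with 103 in T-47D. The ERE in a ZMIZ1 intron shown above was covered by anchors of Ishikawa and T-47D but not of LNCaP. In T-47D that anchor (chr10:80915436-80919591) had 15 partners and 258 read pairs, with 17 read pairs to the ZMIZ1 promoter. In Ishikawa the covering anchor (chr10:80904301-80920110) had 18 partners and 131 read pairs, none to ZMIZ1 and 12 to the promoter of PPIF, a mitochondrial isomerase gene 189 kb downstream. An anchor over this element was thus joined to the promoter of its host gene in T-47D, and no such loop was listed in Ishikawa. DDIT4, a stress-induced inhibitor of mTOR signalling, had 3 distal anchors with 37 read pairs in Ishikawa, 29 with 884 in LNCaP and 4 with 60 in T-47D. BMPR1A, a bone morphogenetic protein receptor, had 2 distal anchors in Ishikawa, 11 in LNCaP and 2 in T-47D, and CPEB3, a regulator of mRNA polyadenylation, had 2, 20 and 1. The other 4 of the 8 genes that were 4-fold lower in Ishikawa were COMTD1, GLUD1, SHLD2 and FRAT2.

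The gene lists are set beside all 429 segment genes, of which 76.9% were linked in Ishikawa, 53.8% in LNCaP and 36.6% in T-47D, and 32.9% were at least 4-fold higher in Ishikawa. Of 19 developmental transcription factors in the segment, 13 (68.4%) had a linked distal anchor in Ishikawa, 3 (15.8%) in LNCaP and 2 (10.5%) in T-47D, and 8 (42.1%) were at least 4-fold higher in Ishikawa. Each share of linked genes was thus below that of all segment genes. EMX2 had 11 distal anchors and 100 read pairs in Ishikawa, with 36 to an anchor 16.1 kb downstream (chr10:119315811-119320359), and 0 in both other lists. HHEX, a homeobox factor of foregut and blood vessels, had 17 anchors and 162 read pairs, and NKX6-2, a homeobox factor of the nervous system, had 16 and 162. UTF1, a factor of pluripotent cells, had 11 and 72, and PAX2, a factor of kidney and Müllerian duct, had 8 and 46. The distal anchor with the ERE downstream of ADAM8 (chr10:135064713-135076139) was joined most strongly to TUBGCP2, by 40 read pairs, and to KNDC1, by 28. It was joined to UTF1 by 24 read pairs, to ADAM8, a membrane metalloprotease gene, by 24, and more weakly to other genes. Neither other list had an anchor over this element. HHEX, NKX6-2, UTF1 and PAX2 had no linked anchor in T-47D or LNCaP. TLX1, LBX1, HMX3, PITX3, FOXI2 and VENTX had none in any list. HMX2, with 5, shares its only promoter anchor with BUB3, so the contacts of these genes cannot be told apart in Ishikawa.

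All 14 genes listed as chromatin and transcription coregulators were linked in Ishikawa, 13 (92.9%) in LNCaP and 8 (57.1%) in T-47D, with medians of 13.5, 2.5 and 1 distal anchors. The medians over all 429 segment genes were 6, 1 and 0. PCGF5, a Polycomb subunit, had 23 distal anchors in Ishikawa, 1 in LNCaP and 0 in T-47D. KAT6B, a histone acetyltransferase, had 21, 4 and 0, and SMC3, a cohesin subunit, had 15, 2 and 0. ZMIZ1 and CTBP2, described above, also stood on this list, and ZMIZ1 was its only member at least 4-fold lower in Ishikawa. WAPL had 1, 2 and 2. ERLIN1, which stood on this list but is a membrane protein of the endoplasmic reticulum, had 24, 7 and 1. Without it, a choice made after seeing the data, 13 of 13 were linked in Ishikawa, 12 in LNCaP and 7 in T-47D, with medians of 13, 2 and 1.

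Growth factor and growth control genes were linked in 12 of 17 cases (70.6%) in Ishikawa, 10 (58.8%) in LNCaP and 7 (41.2%) in T-47D, and 3 (17.6%) were at least 4-fold higher in Ishikawa. PIK3AP1, an adaptor of phosphoinositide 3-kinase, had 18, 6 and 2 distal anchors, and WNT8B, a Wnt ligand, had 16, 0 and 0. BTRC, the substrate receptor of an SCF ubiquitin ligase, had 16, 1 and 1. SHOC2, a scaffold of RAS signalling, had 10 in Ishikawa and 15 in LNCaP, and TACC2, a centrosomal protein, had 9 and 12. FGF8, NRG3, SFRP5 and ADRA2A had 0 in all lists.

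Cell cycle and cell death genes were linked in all lists. Of 11, Ishikawa linked 11, T-47D 10 (90.9%) and LNCaP 9 (81.8%), and none was 4-fold higher or lower in Ishikawa. CEP55, which acts in cytokinesis, had 12, 3 and 4 distal anchors, and FAS, a death receptor, had 10, 3 and 3. KIF11, a spindle motor, had 9, 14 and 3, and TNKS2, a poly-ADP-ribose polymerase, had 2, 20 and 4. MKI67, the proliferation marker, had 2, 4 and 1.

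Of 10 genes of retinoid, steroid and lipid metabolism, 5 (50%) were linked in Ishikawa, 4 (40%) in LNCaP and 0 in T-47D, each below the share over all segment genes. LIPA, the lysosomal acid lipase, had 12, 1 and 0 distal anchors, and ACSL5, an acyl-CoA synthetase, had 9, 0 and 0. SCD, the stearoyl-CoA desaturase, had 8 distal anchors (188 read pairs) in LNCaP and 6 (37) in Ishikawa. GSTO1 and GSTO2, neighbouring glutathione transferase genes with a promoter anchor in common, had 19 each in Ishikawa. CYP26A1 and CYP26C1, which degrade retinoic acid, RBP4, which carries retinol in blood, CYP17A1, an enzyme of steroid synthesis, and ELOVL3 had 0 in all lists.

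Among 11 genes of adhesion, matrix and secreted proteases, 9 (81.8%) were linked in Ishikawa, 5 (45.5%) in LNCaP and 3 (27.3%) in T-47D. The list also held KCNMA1, the channel described above, and without it, again chosen after seeing the data, the counts were 8 of 10, 4 and 3. COL17A1, the collagen of hemidesmosomes, had 20 distal anchors and 295 read pairs in Ishikawa and 0 elsewhere. ADAM12, another membrane metalloprotease, had 18 and 112, LOXL4, a lysyl oxidase, had 12 and 124, and HTRA1, a secreted serine protease, had 10 and 121, all with 0 in both other lists. MYOF, a membrane repair protein, had 19 distal anchors with 284 read pairs in Ishikawa, 1 with 6 in LNCaP and 6 with 207 in T-47D. The T-47D list holds 351260 read pairs and the Ishikawa list 1040329, so MYOF took the larger share of its list in T-47D. PLAU, the urokinase plasminogen activator, had 0 in all lists.

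Genes typical of other tissues were linked in 11 of 17 cases (64.7%) in Ishikawa, 0 in LNCaP and 2 (11.8%) in T-47D, and 8 (47.1%) were at least 4-fold higher in Ishikawa. The surfactant gene SFTPD had 21 distal anchors and 259 read pairs in Ishikawa, and DMBT1, a mucosal scavenger receptor gene, had 22 and 227. CYP2C8, a drug-metabolising enzyme of liver, had 7 distal anchors. None of these 3 was linked in T-47D or LNCaP. PNLIP, CYP2C18, CYP2C19, NRAP, RGR and OPN4 had 0 in all 3 lists, so the dense segment did not give every gene a contact. In all, 99 of the 429 segment genes had no linked distal anchor in Ishikawa, and 71 had none in any list.

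**Figure D4:**
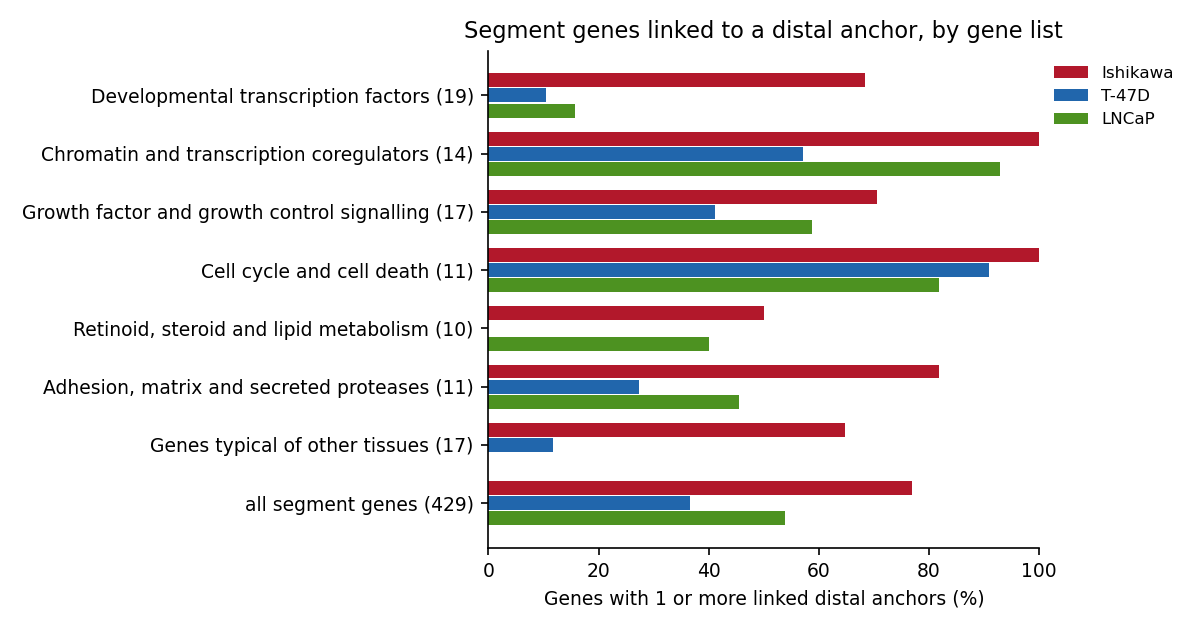
Percent of segment genes with 1 or more linked distal anchors (x axis) in 7 gene lists and over all 429 segment genes (y axis, number of genes in parentheses), with 1 bar per cell line. Ishikawa bars reach 100% for coregulators and for cell cycle genes, and the bars of the 3 lists lie closest together for cell cycle genes and farthest apart for developmental transcription factors and genes of other tissues.

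The strongest single Ishikawa loop of the segment, with 142 read pairs, joined the promoter of PWWP2B, a chromatin reader gene (anchor chr10:134190158-134228615), to an intergenic anchor (chr10:134247051-134267602). Of the 5 strongest, 4 lay in the bin from 134 Mb around PWWP2B and INPP5A, an inositol phosphatase gene, and the fifth, with 89 read pairs, joined PPP1R3C, a glycogen regulator, to a neighbouring anchor. In T-47D the strongest loop (134 read pairs) joined intergenic anchors at chr10:82722030-82729118 and chr10:82762542-82766905, and no Ishikawa loop overlapped it at both anchors. The next (122 read pairs) lay in MYOF, where the overlapping Ishikawa loop had 15 read pairs. In LNCaP the strongest loop (600 read pairs) joined USP54 promoter anchors, where Ishikawa had 35 read pairs, and the next (344) lay in introns of CPEB3, where Ishikawa had at most 10 in a loop.

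Loops of the other lists were more often found in Ishikawa within the segment than outside it. Of the 862 T-47D segment loops, 221 overlapped an Ishikawa loop at both anchors (25.6%, 22.8 to 28.7), against 39 of 866 on the rest (4.50%, 3.31 to 6.10). The segment share was 14.7% when the Ishikawa list was thinned to the T-47D read pairs and 15.7% for Ishikawa loops listed in 2 or more parts. Of the LNCaP segment loops, 17.1% (15.9 to 18.5) were found in Ishikawa, against 4.38% (3.71 to 5.17) on the rest. T-47D loops were found in LNCaP in 38.4% of cases in the segment and 24.1% on the rest, so their overlap was also higher there, by less. A list that covers 37.4% of the segment with its anchors overlaps more sites than one that covers 17.1%, and the part of anchor cover in the shares was not tested. When both anchors had to overlap by 50% of their lengths, 0.696% of the T-47D segment loops were found in Ishikawa. Median anchor widths in the segment were 5.299 kb in Ishikawa and 2.605 kb in T-47D. A T-47D anchor of median width is thus too narrow to cover 50% of an Ishikawa anchor of median width. The low share therefore does not show that the sites differ. In the other direction, 12556 of the 13148 Ishikawa segment loops (95.5%) were in neither other list, as were 95.2% of those on the rest. This share was thus about the same in both regions and is not particular to the segment.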

How the data were processed

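H3K27ac HiChIP read pairs were aligned to hg19 with HiC-Pro by the authors, who called loops with hichipper, removed loops under 3 reads or past their false discovery rate limit, and combined DMSO and E2 loops of Ishikawa. The deposited values are counts of read pairs per loop, not scaled for depth, in 1 list per cell line. The lists held 1040329 (Ishikawa), 351260 (T-47D) and 1805322 (LNCaP) read pairs in loops between different anchors of 1 chromosome. Here, rows of the 4 parts of the Ishikawa list that named the same anchor pair were added up. Every edge of the anchors on chromosome 10 lay at a GATC site of GRCh37, and Ishikawa starts, which lie 1 base after the preceding end, were read as counted from 1.

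The segment, the gene lists and all other members were chosen with earlier results of these data known. Genes leading in distal anchors (10 in Ishikawa, 5 each in T-47D and LNCaP) are named, as are the strongest loops, the densest and sparsest bins and those members of 7 lists with 10 or more distal anchors, the largest differences or 0 in all lists. Some genes that met this rule are not reported here. Promoters were 500 bp windows centred on every start site of 20163 protein-coding genes (GENCODE release 44 lifted to GRCh37), and a gene was linked to each anchor without a promoter that was joined to its promoter anchors. A loop was found in another list if both anchors overlapped those of 1 loop by 1 bp or more. Shares and density ratios have 95% Wilson intervals and medians have order-statistic intervals. No hypothesis test was made. Linking and sharing were tested on simulated data. For thinning only the mean of the random draw was checked. Alternatives were a higher minimum (5 or 10 read pairs), random thinning to the shallowest list, loops in 2 or more parts, spans of 20 kb to 1 Mb, a start at 76 Mb, the q arm from 43 Mb as reference, lengths without N, an overlap of 50%, a promoter window of 2 kb and a lone start site for each gene. Python 3.11.15, numpy 2.4.6, pandas 2.3.3 and scipy 1.17.1 were used.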

Additional observations from a re-analysis of the deposited data

Results flagged for a closer look

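Read pairs outside the definition of a loop also fell in the segment. Pairs with both ends in 1 anchor, which were left out of all loop counts, numbered 33841 in Ishikawa (550 per Mb, against 151 per Mb on the rest of chromosome 10, a ratio of 3.65) and 7471 in T-47D (121 against 102 per Mb, a ratio of 1.19), while the LNCaP list holds none. Such pairs need no contact between distant sites. The Ishikawa ratio of loop read pairs was 6.95, and the cause of the difference from 3.65 was not tested.

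The T-47D list alone holds rows that join chromosomes, 70 rows with 308 read pairs. Of these, 11 rows with 51 read pairs touched the segment, and 10 of them, with 48 read pairs, led to chromosome 3 between 168863283 and 190189143. Most of these, 9 rows with 41 read pairs, left from anchors between 75005829 and 75013777, at the promoters of DNAJC9, a DNAJ cochaperone gene, and MRPS16, a mitochondrial ribosomal protein gene. The other lists have no such rows, so the signal could not be compared across lines.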

How the results depend on the processing

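With 1 list per line, a change was set against the 95% counting interval of the value reported. Of 44 values under alternatives, over 6 results, 3 could not move because the alternative leaves their list as it is (T-47D and LNCaP with Ishikawa loops in 2 or more parts, T-47D thinned to itself). Of the other 41, 19 stayed inside that interval, 22 left it and 0 changed direction. A direction was defined only for the density and span ratios. The shares of loops found and of genes linked had no value on the rest under the alternatives, so their direction was not checked. The Ishikawa density ratio of 5.31 was 6.58 and 9.35 with minima of 5 and 10 read pairs, 7.41 after thinning to the T-47D read pairs, 6.88 for loops in 2 or more parts, 6.61 for spans of 20 kb to 1 Mb, 5.63 against the q arm and 5.06 without N bases. The T-47D ratio of 1.20 was 1.80 against the q arm. The LNCaP ratio of 1.23 was 1.11 with the start at 76 Mb and 1.33 after thinning. The ratio of Ishikawa median spans, 1.85, was 1.45 within 20 kb to 1 Mb. The share of T-47D segment loops found in Ishikawa, 25.6%, was 21.9% and 19.1% with the minima of 5 and 10, 14.7% after thinning, 15.7% for loops in 2 or more parts and 0.696% at 50% overlap. The last value depends on anchor width, which was smaller in T-47D. The share of segment genes linked in Ishikawa, 76.9%, was 70.6% and 60.4% with the minima, 68.1% after thinning, 67.8% in 2 or more parts, 72.3% within 20 kb to 1 Mb and 65.7% with 1 start site per gene. The causes were not tested. No paired analysis was possible because each list pools the samples of a line. After thinning to the T-47D read pairs and a new minimum of 3 per loop, 223510 Ishikawa and 255118 LNCaP read pairs stayed in the lists, against 351260 in T-47D, so these depths were not equal. There the segment held 71.7 Ishikawa, 14.0 T-47D and 11.4 LNCaP loops per Mb.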
